A study of Homo sapiens with 7 samples.

Results

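The genes described here encode enzymes that add or remove methyl groups on lysine 27 and lysine 9 of histone H3, together with partner subunits of the H3K27 enzyme. They were chosen by symbol, as the rows of the HepG2 expression table whose gene field, split at commas, holds EZH1, EZH2, EED, SUZ12, KDM6B, SETDB1, SUV39H2, EHMT1, EHMT2 or KDM4A. All 10 genes were found, among 21944 gene symbols in the table. All 7 samples are of untreated HepG2, an established human liver cancer cell line, with 1 sample per assay. The assays were native MNase-Seq for nucleosome positions, ChIP-Seq of the repressive marks H3K27me3 and H3K9me3 and the activation marks H3K4me3, H3K9ac and H3K27ac, and RNA-Seq of total RNA after removal of ribosomal RNA. There is no second condition, cell type or replicate sample, so no P value is given, and the values describe this line only.

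The Polycomb repressive complex PRC2 places H3K27me3, a mark found at silenced developmental genes. EZH2 and EZH1 are its alternative catalytic subunits, EED binds existing H3K27me3, and SUZ12 holds the complex together. KDM6B, also called JMJD3, removes methyl groups from H3K27. H3K9me3 marks constitutive heterochromatin and is placed by SETDB1 and SUV39H2, while the related enzymes EHMT1 (GLP) and EHMT2 (G9a) act together and make mainly the lower methylation states of H3K9. KDM4A removes methyl groups from tri-methylated H3K9 and also acts on H3K36. The other marks measured, H3K4me3, H3K9ac and H3K27ac, are found at active promoters, and their combination on the same nucleosome is the trivalent mark, written "T" below.

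The promoters of both enzyme pairs compared below and of SUZ12, the gene of the group with the highest RNA level, are shown from 250 bases before to 30 bases from the RefSeq start, on build GRCh38.p14. Capitals mark every match on either strand to a GC box (searched as GGGCGG), the box with the letters CCAAT, an E-box (searched as CACGTG), an E2F motif (searched as TTTGGCGC) or part of the NRF1 motif (searched as GCATGCG), and matches may overlap. The TATA box (TATAAA), an ETS motif (searched as CCGGAAG) and a YY1 motif (searched as AAGATGGCG) were searched as well. All searches ran over the windows of 300 bases of the table, and the motifs were chosen after the sequences had been seen.
EZH1 promoter, chr17:42745011-42745290, - strand: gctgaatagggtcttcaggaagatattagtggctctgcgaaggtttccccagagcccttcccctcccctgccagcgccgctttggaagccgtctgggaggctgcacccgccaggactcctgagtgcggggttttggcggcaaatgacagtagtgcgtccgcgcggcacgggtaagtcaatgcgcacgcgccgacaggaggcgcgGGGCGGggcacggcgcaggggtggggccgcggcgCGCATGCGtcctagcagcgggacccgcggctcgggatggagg
EZH2 promoter, chr7:148884262-148884541, - strand: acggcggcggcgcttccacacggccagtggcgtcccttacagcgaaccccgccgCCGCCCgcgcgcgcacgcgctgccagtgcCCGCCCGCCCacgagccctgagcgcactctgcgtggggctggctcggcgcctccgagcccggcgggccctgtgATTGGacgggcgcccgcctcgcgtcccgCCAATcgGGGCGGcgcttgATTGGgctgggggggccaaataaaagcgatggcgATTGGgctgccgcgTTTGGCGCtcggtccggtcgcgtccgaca
EHMT1 promoter, chr9:137618755-137619034, + strand: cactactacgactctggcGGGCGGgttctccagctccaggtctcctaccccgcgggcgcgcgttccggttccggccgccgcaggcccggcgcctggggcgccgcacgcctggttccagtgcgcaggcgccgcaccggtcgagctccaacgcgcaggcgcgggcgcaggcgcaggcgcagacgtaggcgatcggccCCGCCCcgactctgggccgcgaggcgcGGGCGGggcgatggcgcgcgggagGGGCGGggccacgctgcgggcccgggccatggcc
EHMT2 promoter, chr6:31897669-31897948, - strand: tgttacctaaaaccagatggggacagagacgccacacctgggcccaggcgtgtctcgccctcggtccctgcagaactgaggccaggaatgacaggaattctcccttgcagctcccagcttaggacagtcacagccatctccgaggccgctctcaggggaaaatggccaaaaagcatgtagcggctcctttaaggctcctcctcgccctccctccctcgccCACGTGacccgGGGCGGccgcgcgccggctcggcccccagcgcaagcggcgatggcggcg
SUZ12 promoter, chr17:31936757-31937036, + strand: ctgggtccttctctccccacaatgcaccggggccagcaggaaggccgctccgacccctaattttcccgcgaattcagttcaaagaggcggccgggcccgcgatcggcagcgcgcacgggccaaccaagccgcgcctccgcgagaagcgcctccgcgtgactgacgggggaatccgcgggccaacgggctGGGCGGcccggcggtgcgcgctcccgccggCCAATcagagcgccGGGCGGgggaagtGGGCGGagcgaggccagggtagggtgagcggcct

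The promoter table holds 13 windows for the 10 genes, since EZH2, KDM6B and SETDB1 have another start each. TATAAA was in none of the 13 windows, against 11.5% of 35116 windows of all genes. GGGCGG was found in 8 of the 13 windows, from 7 genes, and in 45.0% of all windows. CCAAT was in 4 of the 13 windows, from EED, EZH2, KDM4A and SUZ12, and in 34.6% of all windows. The first EZH2 window holds 4 CCAAT matches between base -94 and base -13 and the TTTGGCGC match at base 2 from the start, a string found in 0.652% of all windows. EZH1 lacks both strings and has GCATGCG, on both strands, at bases -12 and -11, with SETDB1 the other gene of the group to hold it. GCATGCG was present in 3.91% of all windows. EHMT2 and SETDB1 hold CACGTG, present in 7.26% of all windows. CCGGAAG was found for SETDB1 (10.3% of all windows) and AAGATGGCG for SUV39H2 (1.75%). The ratio of observed to expected CpG was above the median of all windows, 0.579, in 12 of the 13 windows and reached 1.10 in EZH2. The exception was the second KDM6B window, at 0.0973.

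HepG2 coordinates are given on hg19, the build named in the submitters' processing notes, and were not converted. The files list 14217405 nucleosome positions and, for the 5 marks, between 26271 (H3K27me3) and 95886 (H3K27ac) peaks, each at 1 position. Of the positions, 1.43% carried at least 1 mark. No read counts are listed, so the depth behind a position or an FPKM value is unknown. The 9 hepatocyte-lineage markers checked lay between 56.6 (FGB) and 10011 FPKM (ALB). Of the markers of other cells, leukocyte PTPRC and CD3E were listed at 0, the endothelial markers at 0.693 or below, and the fibroblast genes COL1A1, COL1A2 and PDGFRB at 0.164, 1.16 and 2.005.

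All 10 genes had an FPKM (fragments scaled to transcript length and library size) of at least 1, as did 51.4% of the 22065 named loci used as background. Their median FPKM was 11.0, against 1.26 over all named loci and 11.9 over the loci at 1 or more. The genes were therefore in the middle of the expressed range, with 4 of the 10 above the median of expressed loci. RNA-Seq was deposited as 1 sample with 2 columns, called run 1 and run 2 here. Whether these are separate cultures or repeat sequencing is not given. Among 5453 named loci in the FPKM range of the 10 genes, the runs differed by a median of 0.0690 on the log2 scale, with a 90th percentile of 0.192. In bulk RNA a lower level cannot be told apart from fewer cells with the transcript.

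The PRC2 genes covered most of the range. SUZ12 was highest, with 20.4 FPKM in run 1 and 20.9 in run 2, at percentile 83.1 of the named loci. A pseudogene, SUZ12P, is listed apart at 2.69 and 2.98, so reads may be split between these loci and the SUZ12 value is uncertain to that extent. EZH2 had 17.008 and 15.4 FPKM, and EED 12.3 and 12.8. EZH1, the alternative catalytic subunit, was lowest of the group with 3.81 and 3.86, at percentile 58.3. EZH2 thus exceeded EZH1 4.23-fold, by 4.47-fold in run 1 and 4.004-fold in run 2, and the values of the runs did not overlap. The demethylase gene KDM6B had 4.24 and 3.74 FPKM, overlapping EZH1. Its row in the table also holds TMEM88, so its value covers both symbols and they cannot be told apart.

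Among the H3K9 genes, EHMT2 had 19.1 FPKM in run 1 and 19.0 in run 2, and EHMT1 had 8.72 and 8.27. EHMT2 exceeded EHMT1 2.24-fold, with 2.18-fold in run 1 and 2.30-fold in run 2. EHMT2 is listed at 6 further rows on alternative chromosome 6 haplotypes, all at 0 in both runs. SUV39H2 had 10.8 and 12.5 FPKM, the widest difference between runs of the group (0.21 on the log2 scale, above the 90th percentile of loci in this range). SETDB1 had 8.35 and 8.15 FPKM. KDM4A, the H3K9 demethylase gene of the group, had 10.6 and 10.1. Its antisense partner, listed as LOC100132774 and named KDM4A-AS1 in RefSeq, had 0.766 and 0.662 over the same coordinates, and whether reads were counted by strand is not given in the sources used here.

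In order of mean FPKM, the genes were SUZ12, EHMT2, EZH2, EED, SUV39H2, KDM4A, EHMT1, SETDB1, KDM6B and EZH1. The runs of 3 neighbouring pairs overlapped, namely EED and SUV39H2, EHMT1 and SETDB1, and KDM6B and EZH1, so their order is not resolved. Runs that do not overlap do not establish the order of the other pairs, since the spread between runs may be technical. That spread also leaves out the limits given above for single genes, such as SUZ12P and TMEM88. The largest step between neighbours was from SETDB1 to KDM6B, 2.07-fold. The demethylase genes did not lie below all the methyltransferase genes. KDM4A lay below EZH2, EHMT2 and SUV39H2 in both runs, but above EHMT1, SETDB1 and EZH1. KDM6B lay below each of them except EZH1, which it overlapped.

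**Figure D1:**
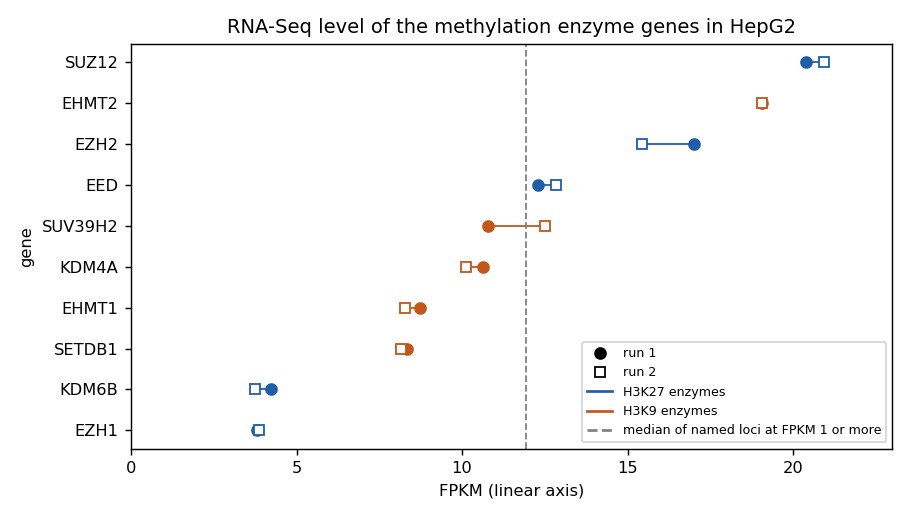
FPKM (x axis, linear) of each gene in run 1 (filled circles) and run 2 (open squares) of the HepG2 RNA-Seq sample, joined by a line, for H3K27 genes (blue) and H3K9 genes (orange). SUZ12 is highest at 20.4 and 20.9, EZH1 lowest at 3.81 and 3.86, and the dashed line is the median of named loci at FPKM 1 or more, 11.9.

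Over the loci with 10 kb on either side, 4522 nucleosome positions were counted for the 10 genes, and 147 of them carried a mark, or 3.25% (exact Clopper-Pearson 95% interval 2.75 to 3.81, for counting error only). H3K4me3, H3K9ac, H3K27ac and "T" were each present at 1 or more positions of all 10 genes. In the background, 73.7% of named loci had H3K4me3, 73.7% had H3K9ac, 67.9% had H3K27ac and 63.2% had "T", and any mark was found at 90% of them. Among the 12948 loci between 18.015 and 230.525 kb, the lengths of the shortest and the longest of the 10 loci, these shares were 83% for H3K4me3, 82.8% for H3K9ac, 77.9% for H3K27ac, 73.7% for "T" and 95.8% for any mark. The presence of these marks somewhere in such a region is thus common. "T" was at 76 positions, 1.68% of those counted (1.33 to 2.099) against 0.301% of positions in the genome. It made up 51.7% of the marked positions of the group, compared with 21.0% of the marked positions in the genome. H3K4me3 was at 114 positions, H3K9ac at 101 and H3K27ac at 102. Positions of the genome include those outside gene loci, so these shares do not compare like regions. The median number of marked positions was 17 per gene, against 9 over all named loci and 11 over the loci of these lengths. For "T" the median was 7.5 per gene, against 3 over all named loci and 4 over the loci of these lengths. These medians were not compared with those of expressed loci alone.

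KDM6B had the most marked positions, 26 of 202, or 12.9% (8.58 to 18.3), and EZH1 the fewest, 3 of 370, or 0.811% (0.168 to 2.35). With this flank KDM6B also had the most "T" (16), a number reached by 0.781% of 4223 loci within 1.5 times its own length, a class chosen after the data were seen. Among the 12948 loci between 18.015 and 230.525 kb, 2.47% reached it. EHMT2, SUV39H2 and KDM4A had 10 "T" each, SETDB1 9, SUZ12 and EZH2 6, EED 4, EHMT1 3 and EZH1 2. The order depended on the flank: with 20 kb EHMT2 had 19 "T" and EZH1 7, while KDM6B still had 16 and EZH2 and SUZ12 6 each. With the loci alone KDM6B had 12, SETDB1, SUZ12 and EZH1 2 each and EHMT2 3. The RNA levels of KDM6B and EZH1 overlapped. Part of these positions lies at the starts of neighbouring genes, as described for each locus below.

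**Figure D2:**
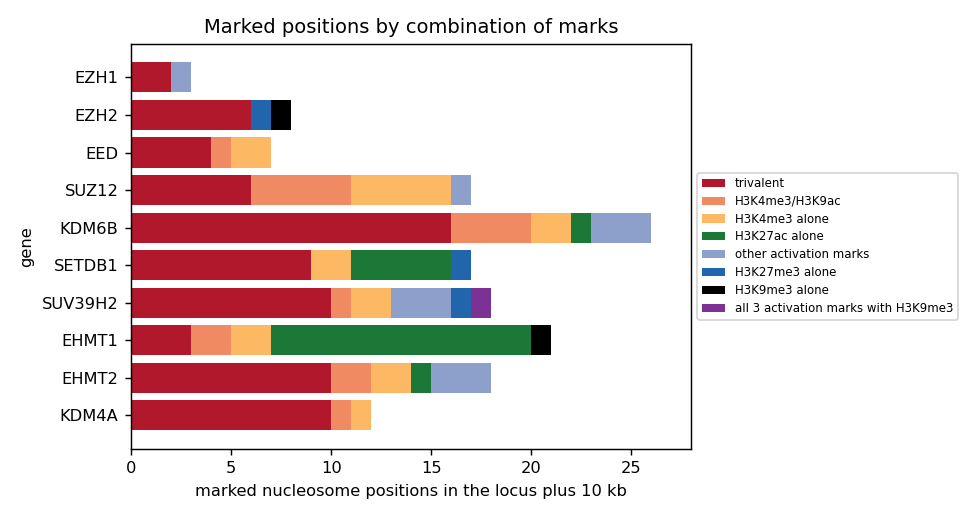
Number of marked nucleosome positions (x axis) in each locus with 10 kb on either side, divided by the exact combination of marks on a position (colours). KDM6B has 26 marked positions with 16 "T", EZH1 has 3, and 13 of the 21 marked positions of EHMT1 carry H3K27ac alone.

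Starts were taken as the end of the listed locus at which transcription begins, with the strand read from the numbering of loci. This strand was that of RefSeq for all 10 genes. Within 2 kb of the listed start, 9 of the 10 genes had "T", against 41.6% of all named loci and 71.6% of loci at an FPKM of 1 or more. All 7 genes whose coordinates no other named locus shares were among these 9, against 42.4% of all such loci. The same 9 genes had H3K4me3 there, against 51.6% of named loci, H3K9ac (48.8%) and H3K27ac (44.1%), and any mark was found at 60.2% of named loci. The median number of "T" was 3.5 for the group, 0 over all named loci and 2 over those at an FPKM of 1 or more. The median number of H3K4me3 positions, 5, equalled that of the expressed loci. The exception was SUV39H2, with 0 marked of 19 positions, whose listed locus is shared with DCLRE1C and whose listed start is not a safe one, as described below. EHMT1 is counted among the 9 at a listed start it shares with ARRDC1, so its count there may not describe its own promoter.

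At EZH2, listed at chr7:148504472-148581768, each of the 6 marked positions within 2 kb of the start was "T". They lay between -0.643 and 1.41 kb of the start, negative values being upstream, and were 6 of 15 positions, or 40.0% (16.3 to 67.7). At EZH1, listed at chr17:40852200-40897109, 3 of 22 positions were marked, or 13.6% (2.91 to 34.9), all between 0.213 and 0.733 kb downstream. The intervals of both paralogs overlap, so the shares were not resolved at this number of positions. EZH1 had 2 "T" and 1 position with H3K9ac/H3K27ac, and none upstream of the start. EED (chr11:85955404-85997777) had 7 marked positions and SUZ12 (chr17:30263957-30328129) had 8. Within 2 kb both had the same numbers of every mark, 7 with H3K4me3, 5 with H3K9ac, 4 with H3K27ac and 4 "T", a set of numbers that 47 other named loci apart from the group also had. The arrangement differed: in EED the marked positions ran from -0.048 to 1.86 kb, while in SUZ12 they ran from -0.616 to 1.45 kb. All 4 "T" of EED lay downstream of the start, and those of SUZ12 lay at -0.421, -0.291, 0.192 and 0.609 kb. At the downstream end, EED had 1 position with H3K4me3/H3K9ac and 1 with H3K4me3 alone, and SUZ12 had 3 with H3K4me3 alone.

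SETDB1 (chr1:150898701-150937226) had 6 marked positions near its start with 3 "T", bounded by H3K4me3 alone at -0.625 kb and by H3K27ac alone at 1.05 kb. KDM4A (chr1:44115796-44173012) had 5 marked positions near its start, and all 5 were "T", from -0.4 to 0.85 kb. EHMT2 (chr6:31847473-31865488) had 8 with 5 "T", between -0.708 and 0.712 kb. Here the locus of the complement gene C2 begins 0.11 kb upstream in the opposite direction, and in RefSeq the starts of C2 and EHMT2 are 85 bp apart on GRCh38.p14, so these 8 positions cannot be assigned to either gene. The C2 locus is listed at 145 FPKM with CFB, and EHMT2 at 19.0. A further 6 marked positions with 4 "T" lay at -4.978 to -3.778 kb, inside the locus listed for C2 and CFB. The same coordinates are listed for SKIV2L, STK19, ZBTB12, RDBP, DOM3Z and MIR1236, so these positions cannot be assigned to any of these genes.

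For 6 of the 10 genes (EZH2, EED, SUZ12, SETDB1, EHMT2 and KDM4A) the widest step between neighbouring positions within 1 kb spanned the listed start, as it did for 40.4% of named loci and 50.7% of those at an FPKM of 1 or more. The step was 810 bp in SETDB1, 507 bp in KDM4A, 483 bp in SUZ12, 463 bp in EZH2, 349 bp in EHMT2 and 347 bp in EED. EHMT1 had only 2 positions within 1 kb, at 196 and 891 bp downstream and none upstream, so the measure does not cover the stretch without positions over its listed start. In EZH1 the widest step was 315 bp and lay downstream, from 213 to 528 bp, between both "T" positions.

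**Figure D3:**
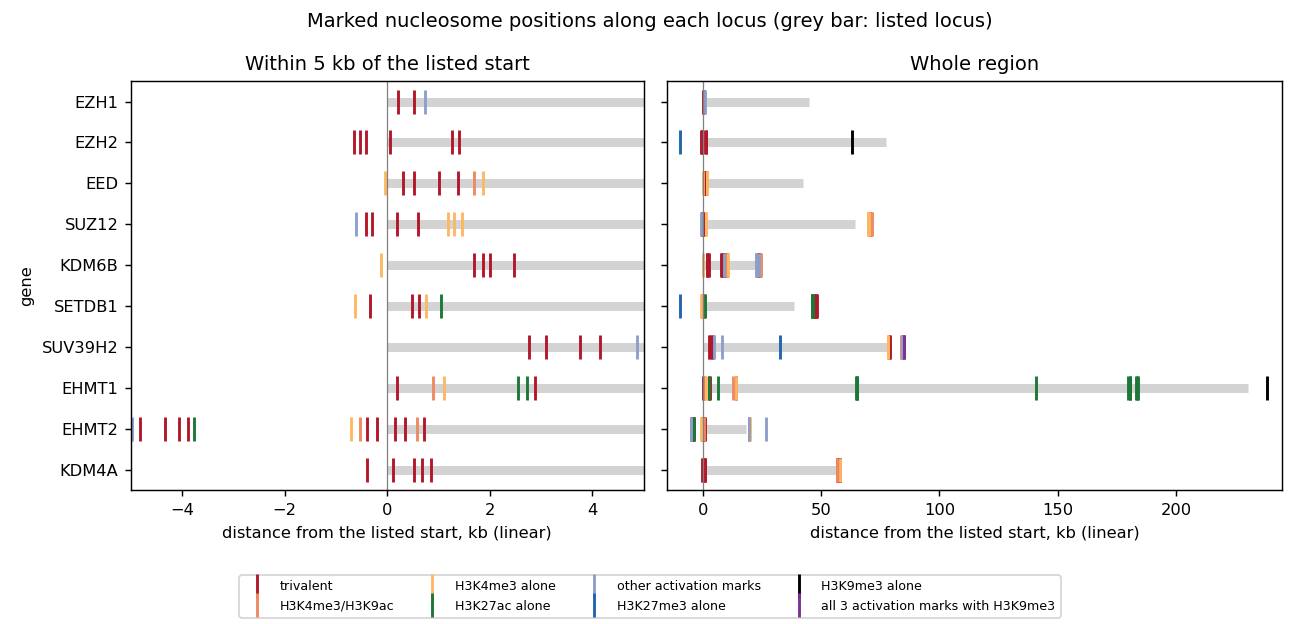
Marked nucleosome positions (vertical ticks, coloured by combination of marks) of each gene by distance from the listed start in kb, downstream to the right, within 5 kb (left) and over the whole region (right), with the listed locus in grey. In EZH2 and KDM4A the ticks near the start are "T" alone, SUV39H2 has none within 2 kb of its listed start, and EHMT1 has H3K27ac alone far inside its locus.

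SUV39H2 is listed at chr10:14917255-14996785, the same coordinates as DCLRE1C on the other strand, a DNA repair nuclease gene with a mean of 3.36 FPKM. The first marked stretch lay 2.76 to 4.87 kb inside the locus and held 4 "T" and 1 position with H3K9ac alone. On GRCh38.p14 the RefSeq starts of SUV39H2 and DCLRE1C are 75.566 kb apart, which is less than the 79.53 kb of the shared locus. Counted back by this distance from the end where DCLRE1C begins, the SUV39H2 start falls within the first marked stretch, although the builds differ. The listed start is therefore not a safe start for SUV39H2. The count of 0 "T" within 2 kb of the listed start may not describe its promoter. A single position with H3K9ac alone lay at 7.901 kb. Another stretch, of 5 positions with 3 "T", lay 78.1 to 79.1 kb from the listed start, at the end where DCLRE1C begins.

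EHMT1 is listed at chr9:140500095-140730620 together with ARRDC1, C9orf37 and FLJ40292. H3K4me3 was found in 2 stretches, from 0.196 to 2.88 kb with 2 "T" and from 12.6 to 14.1 kb with 1 "T". In RefSeq the starts of ARRDC1 and EHMT1 are 13.319 kb apart on GRCh38.p14. The first of these stretches is near the listed start, which is also that of ARRDC1 (12.5 FPKM), and the second is at a distance similar to that between the RefSeq starts. EHMT1, by far the longest of the 10 loci, also had the most H3K27ac alone, 13 of its 1273 positions, or 1.02%. This combination was at 0.215% of the 3249 positions of the other 9 genes and at 0.285% of positions in the genome. As many such positions were found for 16.6% of 2250 loci within 1.5 times the length of EHMT1, a class chosen, as for KDM6B, after the data were seen. Of these, 10 lay deep in the locus, with 3 at 64.8 to 65.2 kb, 1 at 140.743 kb, 3 at 179.668 to 180.586 kb and 3 at 183.286 to 183.736 kb, and no H3K4me3 or H3K9ac lay there. Each of the other, shorter loci had at most 1 position with H3K27ac alone inside.

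KDM6B (chr17:7737531-7759448) had 3 stretches. The first, from -0.13 to 2.48 kb, held 5 marked positions with 4 "T". The second, from 7.75 to 10.5 kb, held 13 marked positions with 8 "T". RefSeq gives KDM6B starts 5.7 kb apart, and no marked position lay between 2.48 and 7.745 kb from the listed start. The third stretch, of 8 positions with 4 "T", lay at 22.4 to 24.6 kb, beyond the end of the locus and at the start of CYB5D1 (7.03 FPKM).

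Marked stretches in the flanks of other genes also lay at neighbouring starts. Beyond SUZ12, 9 positions with 2 "T" lay at 69.8 to 71.3 kb, where LRRC37B and SH3GL1P1 (1.13 and 0.200 FPKM) are listed to begin. Beyond SETDB1, 10 positions with 6 "T" lay at 46.0 to 48.1 kb, near the listed start of LASS2, the ceramide synthase gene now named CERS2, at 125 FPKM. At the end of KDM4A, 7 positions with 5 "T" lay at 56.6 to 58.2 kb, where KDM4A-AS1 starts and the ARTN,ST3GAL3 locus (5.28 FPKM) begins. Beyond the end of EHMT2, 3 positions with 1 "T" lay near the start listed for NEU1,SLC44A4 (215 FPKM). With the loci alone and no flanks, the group had 44 "T" in place of 76.

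The deposited lists are sparser than those the paper describes. In them, few positions of the loci with 10 kb on either side carried the repressive marks whose enzymes these genes encode. H3K27me3 was at 3 of the 4522 positions, or 0.0663% (0.0137 to 0.194), an interval that includes the 0.185% of the genome. H3K9me3 was also at 3 positions, with the same interval, which lies below the 0.243% of the genome. Neighbouring positions are not independent, so these intervals are likely too narrow. By gene, 3 of 10 had H3K27me3, against 31.2% of named loci, and 3 of 10 had H3K9me3, against 31.9%. Shares by gene were thus near the background. Of the loci between 18.015 and 230.525 kb, 30.2% had H3K27me3 and 34% had H3K9me3, and of those among them at an FPKM of 1 or more, 19.6% and 30.3%.

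None of the 6 positions lay within 2 kb of the start of a gene of the group (background 7.42% of named loci for H3K27me3 and 2.1% for H3K9me3). H3K27me3 was found at -9.783 kb from the start of EZH2, at -9.875 kb from that of SETDB1 and 32.7 kb inside the SUV39H2 locus. H3K9me3 was found alone 63.1 kb inside the EZH2 locus and 238.371 kb from the listed start of EHMT1, beyond its end. The EZH2 locus itself had 0 positions with H3K27me3. The other H3K9me3 position carried H3K4me3, H3K9ac and H3K27ac too, a combination at 111 positions in the genome, and lay 84.851 kb from the listed start of SUV39H2, near the start of MEIG1. With 5 kb of flank in place of 10 kb, 1 gene kept each repressive mark, SUV39H2 for H3K27me3 and EZH2 for H3K9me3.

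The number of "T" within 2 kb of the start was set beside the RNA level. Over the 10 genes Spearman's rho was 0.569 (n = 10 genes, a description across genes of 1 sample), and over the 7 genes with coordinates of their own it was 0.800. These 7 genes were set apart after the data were seen and are not free of other limits. They include KDM6B, whose row also holds TMEM88, and EHMT2, whose marked positions cannot be told from those of C2. The FPKM of SUZ12, also among them, is uncertain because of SUZ12P. For SUV39H2, EHMT1 and KDM4A the locus is shared, and the listed starts of SUV39H2 and EHMT1 may belong to other starts, as described above. EZH2, with 6 "T", was at percentile 52.1 of the 678 loci with that number, and EED, with 4, at percentile 48.2 of 1543. EHMT2 and KDM4A, with 5 each, were at percentiles 55.8 and 38.7 of 1051, SUZ12 (4) at 64.4, SETDB1 (3) at 39.6 and EHMT1 (1) at 58.6. EZH1 and KDM6B, with 2 each, were lower in their class, at percentiles 27.4 and 28.2 of 1826. The KDM6B count depends on the edge of the window, since further "T" of the same stretch lay at 2.005 and 2.48 kb. RefSeq also gives KDM6B starts 5.7 kb apart. Its class, its percentile and both rho values carry these limits. SUV39H2, with 0 at its listed start, was at percentile 90.3 of 12892 loci.

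**Figure D4:**
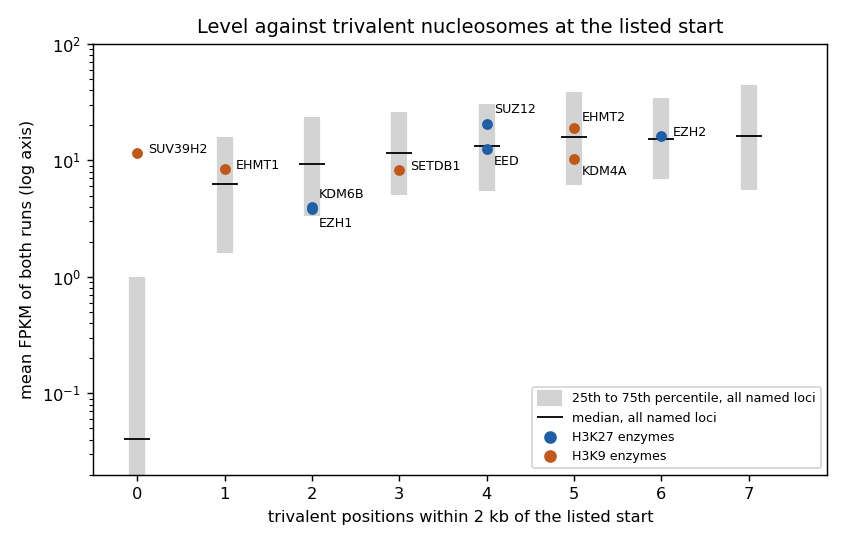
Mean FPKM of both runs (y axis, log scale) against the number of "T" positions within 2 kb of the listed start, for the 10 genes (points) and for all named loci with 0 to 7 such positions (grey bars from the 25th to the 75th percentile, black dashes at the median). EZH1 and KDM6B lie below the median of their class, 9.39, and SUV39H2 lies above the bar for 0, whose 25th percentile of 0 is drawn at the bottom of the axis.

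For each gene, the locus with the same numbers of all 5 marks and of "T" within 2 kb of the start and the closest FPKM was looked up in the 1 sample. It was USP33 for EZH2 (16.2 and 16.2 FPKM, among 71 such loci), SLC25A17 for EED, DUSP14 for SUZ12, LRIG1 for KDM6B (among 102), GABARAPL1 for SETDB1, PDZD8 for KDM4A and MIR3916 for EHMT1. For EHMT2 it was SKIV2L, whose listed start is the neighbouring one and which thus counts the same positions. EZH1 had 20 such loci, and the closest, ZNF678, had 2.74 FPKM against 3.83. SUV39H2 has no entry, since none of the positions near its listed start was marked. The match for EHMT1 rests on the listed start it shares with ARRDC1.

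A list of 54 further genes of H3K27 and H3K9 methylation was set beside these, and 53 were matched to a locus, all but EZHIP. Of these, 49 had an FPKM of at least 1 (background 51.4%), and the median FPKM was 9.95. "T" was near the listed start of 39 of the 53, against 41.6% of named loci and 71.6% of those at an FPKM of 1 or more, which is close to the share of expressed loci. The 3 highest were CBX3, the heterochromatin protein HP1 gamma, with 169 and 174 FPKM, TRIM28, the corepressor that recruits SETDB1, with 74.5 and 71.9, and the histone-binding PRC2 subunit RBBP7 with 61.2 and 62.1. The 3 lowest were KDM4E, listed at 0 under its older name KDM4DL, MECOM at 0.110 and KDM4D at 0.606. KDM4D had 3 "T" near its start at this level. All 9 matched PRC2 partners had an FPKM of at least 1 and "T" near the start, with a median FPKM of 16.4. Of the 13 H3K9 methyltransferases and their partners 6 had "T" near the start, at a median FPKM of 8.18, as did 8 of 11 H3K9 demethylases (median 8.18), 12 of 16 PRC1 genes (median 11.1) and all 3 HP1 genes (median 52.5). Most of the H3K9 methyltransferases and partners without "T" share listed coordinates with other named loci, as do some of those with it. Listed starts of such loci may belong to other genes, so these shares may not describe the genes' own promoters. SUV39H1, the paralog of SUV39H2, was at 4.22 FPKM with 4 "T", and KDM6A, which removes the same mark as KDM6B, at 6.70 with 1 "T".

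Within 2 kb of the listed start, 1 of the 53 genes had H3K27me3 (background 7.42%) and 3 had H3K9me3 (background 2.1%). BMI1, a PRC1 subunit, had 1 H3K27me3 position at 28.5 FPKM, beside 2 "T". PRDM2 and KDM4E had 1 H3K9me3 position each, and PCGF3 had 2. MECOM had none within 2 kb but 13 positions with H3K27me3 and 6 with H3K9me3 over its locus with flanks, and 6 with H3K4me3 near its start.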

How the data were processed

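HepG2 was profiled by native MNase-Seq, ChIP-Seq of 5 histone marks and RNA-Seq, 1 sample each. Per the labels, reads were aligned to hg19 with BWA (MNase-Seq and ChIP-Seq), and TopHat2 2.1.0, Bowtie, HOMER 4.7 and edgeR are named for RNA-Seq. The authors called nucleosome positions with DANPOS and, at these positions, peaks with NUCLIZE against input DNA, filtered on P value, false discovery rate and fold enrichment, and deposited coordinates without counts or scores. The authors deposited FPKM in 2 columns (runs) in the layout of Cuffdiff; whether these are cultures or repeat sequencing is not given in the sources used here, and columns with their own comparison of both runs were not used. The spread between runs may thus be technical.

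A peak marked the position whose identifier it carries (100% of peaks matched). Positions were counted by midpoint in each locus plus 10 kb, and within 2 kb of the listed start. A stretch joined marked positions at steps of at most 2 kb. Strand came from the order of locus numbering; it equalled that of RefSeq in 95.2% of 12947 loci, in 99.4% of the 8794 with coordinates of their own and in 86.3% of those sharing them. Background was 22065 named loci on chromosomes 1 to 22, X and Y. Position starts are written with the first base as 1, and locus coordinates as listed. Genes, lists and neighbours were named by rule: the 10 genes, the 3 highest and 3 lowest of the further list and those with a repressive mark at the start, neighbours with a marked start in a region, and the closest locus by marks and FPKM; SUV39H1, KDM6A and SUZ12P were added after their values were seen. A further leukocyte marker is not reported here. All members and lists were chosen with earlier results of these data known. Promoter sequences are from RefSeq (GRCh38.p14). Counting was tested on simulated data, with all 600 simulated loci recovered. Alternatives were other flanks (0, 5 and 20 kb), windows, overlap rules, runs, pseudocounts, FPKM limits and loci compared. Computation used Python 3.11.15 with scipy 1.17.1, pandas 2.3.3 and numpy 2.4.6, and plots were drawn with matplotlib 3.10.9.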

Additional observations from a re-analysis of the deposited data

How the results depend on the processing

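With no replicate samples, and with lists that give neither counts nor scores, no stricter peak threshold and no left-out replicate could be tried. No paired analysis was possible because each assay has 1 sample. With loci at an FPKM of 0.1 or more as background, the median percentile of the 10 genes was 57.4 in place of 73.0. With a pseudocount of 1, the log2 ratio was 1.83 in place of 2.08 for EZH2 to EZH1 and 1.08 in place of 1.16 for EHMT2 to EHMT1. With the loci alone, the summed positions were 62 for H3K4me3, 54 for H3K9ac, 61 for H3K27ac and 44 for "T", and H3K27me3 and H3K9me3 were at 1 position of 1 gene each, as with 5 kb of flank. With 20 kb of flank H3K9me3 was at 5 positions in 5 genes. With any overlap of a peak, H3K27me3 was at 6 positions, since overlapping neighbours are marked too. Among the 7 genes with coordinates of their own, an alternative chosen after seeing the data, 1 had H3K9me3. Among loci between 18.015 and 230.525 kb, the background was 83.0% for H3K4me3, 82.8% for H3K9ac, 77.9% for H3K27ac, 73.7% for "T", 30.2% for H3K27me3 and 34.0% for H3K9me3. The other 68 values over the group moved by less than 1.5 times for counts, or by no more than the spread of the runs. Of the values for single genes, 264 stayed within these limits and 56 moved, mostly with the flank: with the locus alone "T" went from 9 to 2 in SETDB1, from 10 to 3 in EHMT2, from 6 to 3 in EZH2, from 6 to 2 in SUZ12 and from 10 to 6 in KDM4A, and with 20 kb from 10 to 19 in EHMT2, from 2 to 7 in EZH1 and from 3 to 6 in EHMT1.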

Other observations

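MEIG1, a meiosis gene listed 84.182 kb from the listed start of SUV39H2, had 0 FPKM in both runs, while 6 marked positions with 3 "T" lay within 2 kb of its listed start. The position with all 3 activation marks and H3K9me3 was 1 of these 6. Such positions made up 0.321% of all H3K9me3 positions in the genome.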
